A study of Mus musculus with 22 samples.

Results

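The T cell receptor complex and its coreceptors were followed through 10 genes, Cd3d, Cd3e, Cd3g, Cd247, Cd4, Cd8a, Cd8b1, Lck, Zap70 and Lat, which were chosen by symbol and matched to 1 Ensembl gene each, out of 41388 genes in the files. No measured value entered that rule, although earlier results of these data were known when the genes, lists and tests were chosen. All 10 passed the filter on low values, a CPM (counts scaled to the library total) above 1 in at least 2 libraries, which kept 15018 genes for testing.

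The data were 22 RNA-seq libraries of stromal cells sorted from mammary tumors of C57BL/6 mice aged 56 postnatal days. The labels name the tumors as orthotopic MMTV-BO1, whereas the series design text calls them subcutaneous and the study's text gives the GFP-labeled PyMT-BO1 line. After removal of GFP+ tumor cells, the stroma was sorted by CD45, the pan-leukocyte surface protein, and by TdTomato (TdT), a red reporter that the Osx-cre transgene switches on. All mice carried Osx-cre, a tetracycline-controlled Cre under the promoter of Sp7 (Osterix, Osx), together with the Ai9 TdT reporter, so the red label marks cells in which that promoter is or was active. The study states that its later experiments used mice fed doxycycline until weaning, which suppresses the Cre until then. Its passages on RNA sequencing do not name the diet. Mice labelled wild type (WT) were Osx-cre;Ai9 and mice labelled cKO were Cdh2-cKO;Ai9, which carry a conditional deletion of Cdh2, the gene for N-cadherin. The 4 populations were double positive (Osx+ CD45+, 3 WT and 3 cKO libraries), CD45 single positive (Osx- Cd45+, 3 and 3), Osx single positive (Osx+ CD45-, 2 and 2) and double negative (Osx- Cd45-, 3 and 3). The labels call the libraries of a group biological replicates but tie none of them to a mouse, so p-values measure the spread between these libraries.

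Counted reads ranged from 16594228 to 26784003 per library (median 18977040), so that 3 reads stood for 0.112 to 0.181 CPM, a limit that covers counting error only. Ptprc, which encodes CD45, ranged from 472 to 1821 normalized CPM over the 12 CD45+ libraries and from 2.45 to 337 over the 10 CD45- libraries, with no overlap. Sp7 itself was at or below 0.0669 normalized CPM in every library. Cdh2 ranged from 4.52 to 9.13 normalized CPM over the CD45- libraries labelled WT and from 12.5 to 18.4 over those labelled cKO, so the targeted gene was not lower there. Within Osx single positive cells, in which the reporter marks Cre activity, Cdh2 was at 5.19 and 9.13 in WT and at 13.1 and 17.2 in cKO. Osx- cells lack that mark, so for them the genotype label describes the mouse. Counts over the whole gene do not show the deleted part, and the genotypes below are those of the labels.

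The T cell receptor recognizes peptide held by MHC molecules through its variable chains, which have almost no signaling tail of their own. The CD3 chains and the zeta chain, encoded by Cd247, carry the tyrosine motifs that signal. CD4 and CD8 bind MHC class II and class I and bring the kinase Lck to the receptor, Lck phosphorylates the motifs, Zap70 docks on them, and Zap70 phosphorylates the adaptor Lat. In tumors these transcripts are known mainly from T cells, although NK cells also express Lck, Zap70, Lat and Cd247, some macrophages express Cd4, and a class of dendritic cells expresses Cd8a. In bulk libraries of this kind, fewer cells of a type and less RNA per cell cannot be told apart.

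Cd3g (chr9:44969572-44980431, minus strand, GRCm38) and Cd3d (chr9:44981793-44987052, plus strand) are neighbors transcribed away from each other, with starts 1362 bases apart, and Cd3e (chr9:44998743-45009590, minus strand) lies in the same stretch. The 250 bases before their starts are shown because these 3 neighbors encode the CD3 chains that the results turn on. The same window is shown for both starts of Lck (chr4:129548344-129573641, minus strand), the gene whose transcripts remained where those of Cd3e were nearly absent. The sequences are from RefSeq (GRCm38.p6), 5′ to 3′ in the direction of the gene, and capitals mark the ETS core GGAAG and the RUNX core TGTGGT on either strand.
Cd3g, chr9:44980432-44980681, minus strand: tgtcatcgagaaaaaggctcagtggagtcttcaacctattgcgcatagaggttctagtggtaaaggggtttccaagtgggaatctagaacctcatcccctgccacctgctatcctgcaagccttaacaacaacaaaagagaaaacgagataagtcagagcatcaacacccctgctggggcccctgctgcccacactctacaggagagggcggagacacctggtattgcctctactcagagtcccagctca
Cd3d, chr9:44981536-44981785, plus strand: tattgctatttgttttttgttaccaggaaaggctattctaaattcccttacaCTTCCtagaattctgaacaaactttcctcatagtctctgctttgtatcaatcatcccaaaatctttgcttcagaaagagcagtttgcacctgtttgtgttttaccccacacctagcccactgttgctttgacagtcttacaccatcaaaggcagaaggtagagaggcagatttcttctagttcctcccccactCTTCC
Cd3e, chr9:45009612-45009861, minus strand: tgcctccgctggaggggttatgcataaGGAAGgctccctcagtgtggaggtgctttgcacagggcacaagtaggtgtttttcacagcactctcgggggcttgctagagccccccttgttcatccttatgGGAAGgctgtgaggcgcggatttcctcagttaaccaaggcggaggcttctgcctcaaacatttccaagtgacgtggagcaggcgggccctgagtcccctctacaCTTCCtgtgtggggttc
Lck, distal start, chr4:129573642-129573891, minus strand: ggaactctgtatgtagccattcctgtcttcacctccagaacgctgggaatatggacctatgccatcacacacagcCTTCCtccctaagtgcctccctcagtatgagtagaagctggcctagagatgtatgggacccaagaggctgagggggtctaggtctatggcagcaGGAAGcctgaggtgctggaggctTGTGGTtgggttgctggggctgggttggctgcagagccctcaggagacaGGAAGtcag
Lck, proximal start, chr4:129558373-129558622, minus strand: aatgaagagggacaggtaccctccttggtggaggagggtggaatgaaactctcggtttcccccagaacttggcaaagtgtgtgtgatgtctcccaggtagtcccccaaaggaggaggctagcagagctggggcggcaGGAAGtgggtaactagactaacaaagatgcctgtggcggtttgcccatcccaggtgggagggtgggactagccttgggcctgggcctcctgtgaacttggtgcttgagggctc

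The RefSeq table held 11 such windows for 8 of the 10 genes (not for Cd4 and Cd8b1). The letters GGAAG, read on both strands, were in 9 of the 11 windows, against 64.1% of 32851 mouse windows of 250 bases. The letters TGTGGT were in 2 of the 11, the distal Lck start and 1 of 3 Zap70 starts, against 14.05% of all windows. The TATA box letters TATAAA were in 0 of the 11, against 12.4%. Cd3e and Cd3d held 3 and 2 matches to GGAAG, and the Cd3g window held none of the 3 motifs. These matches describe letters in the windows and no binding was measured.

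One library stood apart before any comparison. In CD45 single positive WT replicate 2, Cd3e was at 514 normalized CPM, 5.74-fold above the highest of the other 11 CD45+ libraries (89.6) and 86.9-fold above their median (5.92). All 10 genes were highest in that library, by 3.98-fold (Cd3g) to 10.8-fold (Cd8b1) over the next library, and by 46.6-fold (Cd4) to 196-fold (Cd8b1) over the median of the others. Markers of other leukocytes were also at other levels there. The 6 B cell markers summed to 3557 normalized CPM against 9.10 to 24.8 in the other 11 CD45+ libraries, and the 8 NK cell markers to 1779 against 23.6 to 277. The 8 neutrophil markers summed to 889 against 76.1 to 142, while the 8 macrophage markers summed to 3819 against 11772 to 17256. Of the other T cell markers, 12 of 12 were detected with at least 3 reads and summed to 1917 against 54.2 to 527. All 6 B cell and all 8 NK cell markers reached 3 reads in that library, Ptprc was at 1821 normalized CPM, and the part of these differences in the results was not tested. The main results that use the library are therefore given with it and without it.

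**Figure D1:**
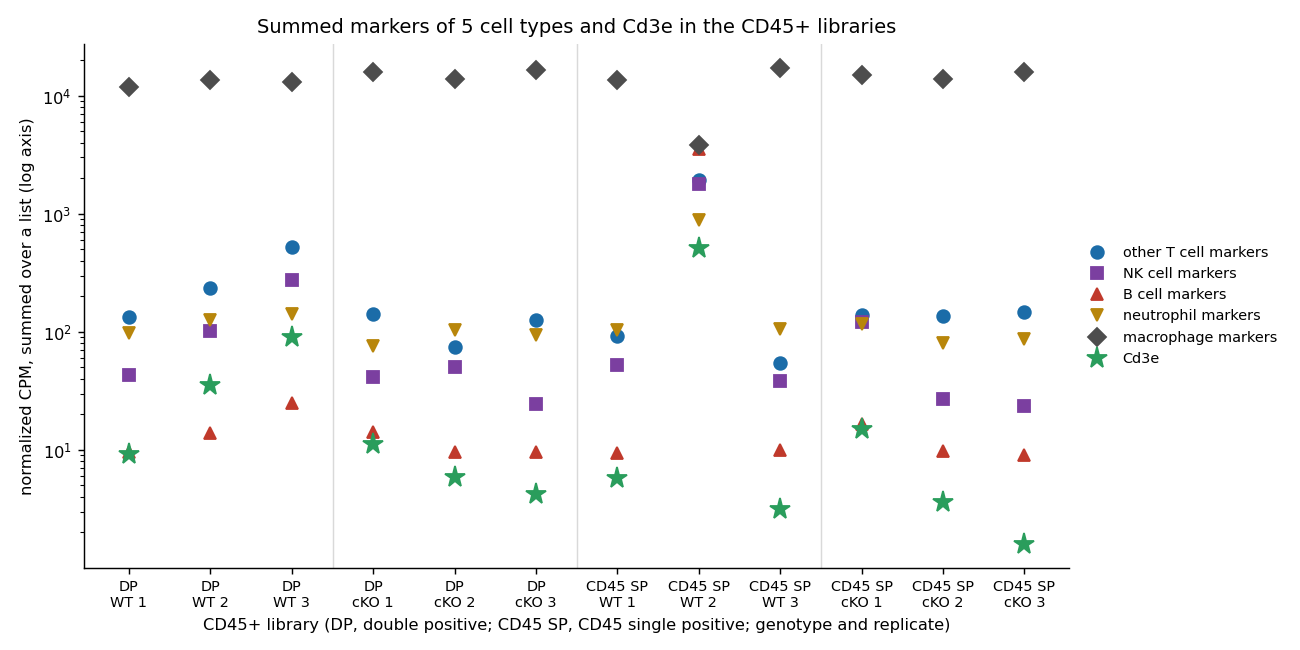
Summed normalized CPM of the marker lists of 5 cell types, and Cd3e, on a log axis, in each of the 12 CD45+ libraries. In CD45 single positive WT replicate 2 the B cell markers reached 3557 and Cd3e 514, whereas the macrophage markers, at 3819, lay below the 11772 to 17256 of the other libraries.

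The 3 CD3 chains came first. Cd3e, the epsilon chain that pairs with both delta and gamma, had 9.21, 35.7 and 89.6 normalized CPM in the double positive WT libraries (replicates 1, 2 and 3) and 11.3, 5.92 and 4.21 in the cKO ones. Its CD45 single positive values were 5.84, 514 and 3.18 in WT and 14.997, 3.61 and 1.60 in cKO. In the CD45- sorts it had 0.051 and 2.60 in Osx single positive WT, 3.50 and 0.729 in cKO, 0.184, 0.563 and 5.67 in double negative WT, and 0.473, 0.485 and 0.792 in cKO. The WT double positive values alone spread 9.73-fold (mean 44.8 ± 41.0, SD, n = 3), and the highest CD45- value was double negative WT replicate 3, a library in which Ptprc was also highest of the CD45- libraries at 337. Cd3g, the gamma chain, ranged from 1.60 to 458 over the CD45+ libraries (median 7.99) and from 0.184 to 5.81 over the CD45- libraries (median 0.836). Cd3d, the delta chain, ranged from 1.28 to 295 (median 4.43) and from 0.153 to 4.46 (median 0.624).

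The zeta chain and the coreceptors followed at other levels. Cd247 (chr1:165788681-165877277, plus strand) ranged from 0.334 to 142 normalized CPM over the CD45+ libraries and from 0 to 1.70 over the CD45- libraries. Cd247 overlaps Pou2f1 on the other strand over 12124 bases, and whether reads were counted by strand is not given in the sources used here. Cd4 (chr6:124864692-124888221, minus strand), the class II coreceptor, had 8.62, 13.6 and 21.7 in double positive WT, 4.19, 3.15 and 3.01 in double positive cKO, 4.09, 147 and 2.80 in CD45 single positive WT, and 2.53, 2.21 and 1.79 in cKO. Its spread was the narrowest, 12.1-fold over 11 CD45+ libraries without the one that stands apart. Within cKO all 3 double positive values of Cd4 lay above all 3 CD45 single positive values, a separation not counted over all genes. Cd8a (chr6:71373427-71379171, plus strand), the alpha chain of the class I coreceptor, had 0.832, 3.22 and 16.04 in double positive WT and 2.37, 0.825 and 0.180 in cKO. In the CD45 single positive libraries Cd8a had 0, 123 and 1.45 in WT and 2.58, 0.669 and 0.0641 in cKO, so 1 of the 12 CD45+ libraries held no Cd8a read. Cd8b1 (chr6:71322836-71337477, plus strand), the beta chain, lies 35950 bases from Cd8a and ranged from 0.384 to 302 over the CD45+ libraries and from 0.0456 to 2.67 over the CD45- ones.

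The signaling members behaved differently between sorts. Lck, the Src family kinase of the coreceptors, had 9.80, 40.9 and 113 normalized CPM in double positive WT and 11.6, 8.10 and 1.38 in cKO. Its CD45 single positive values were 4.93, 610 and 6.03 in WT and 20.6, 3.48 and 1.28 in cKO. Over the 10 CD45- libraries Lck stayed between 1.79 and 5.78 (median 3.09), a 3.23-fold spread, against a 111-fold spread of Cd3e. Zap70 (chr1:36761798-36782816, plus strand), the kinase that docks on the phosphorylated chains, had 0.475, 3.45 and 9.97 in double positive WT, 1.16, 0.776 and 0 in double positive cKO, 1.20, 41.9 and 0.323 in CD45 single positive WT, and 2.20, 0.602 and 0.320 in cKO. Its Osx single positive values, 1.22 and 2.94 in WT and 1.44 and 2.69 in cKO, were above all double negative values, which ran from 0.0485 to 0.709. How many of all genes separate in this way was not counted. Lat (chr7:126363832-126369543, minus strand), the membrane scaffold, ranged from 0.448 to 110 over the CD45+ libraries and from 0.051 to 2.33 over the CD45- ones.

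**Figure D2:**
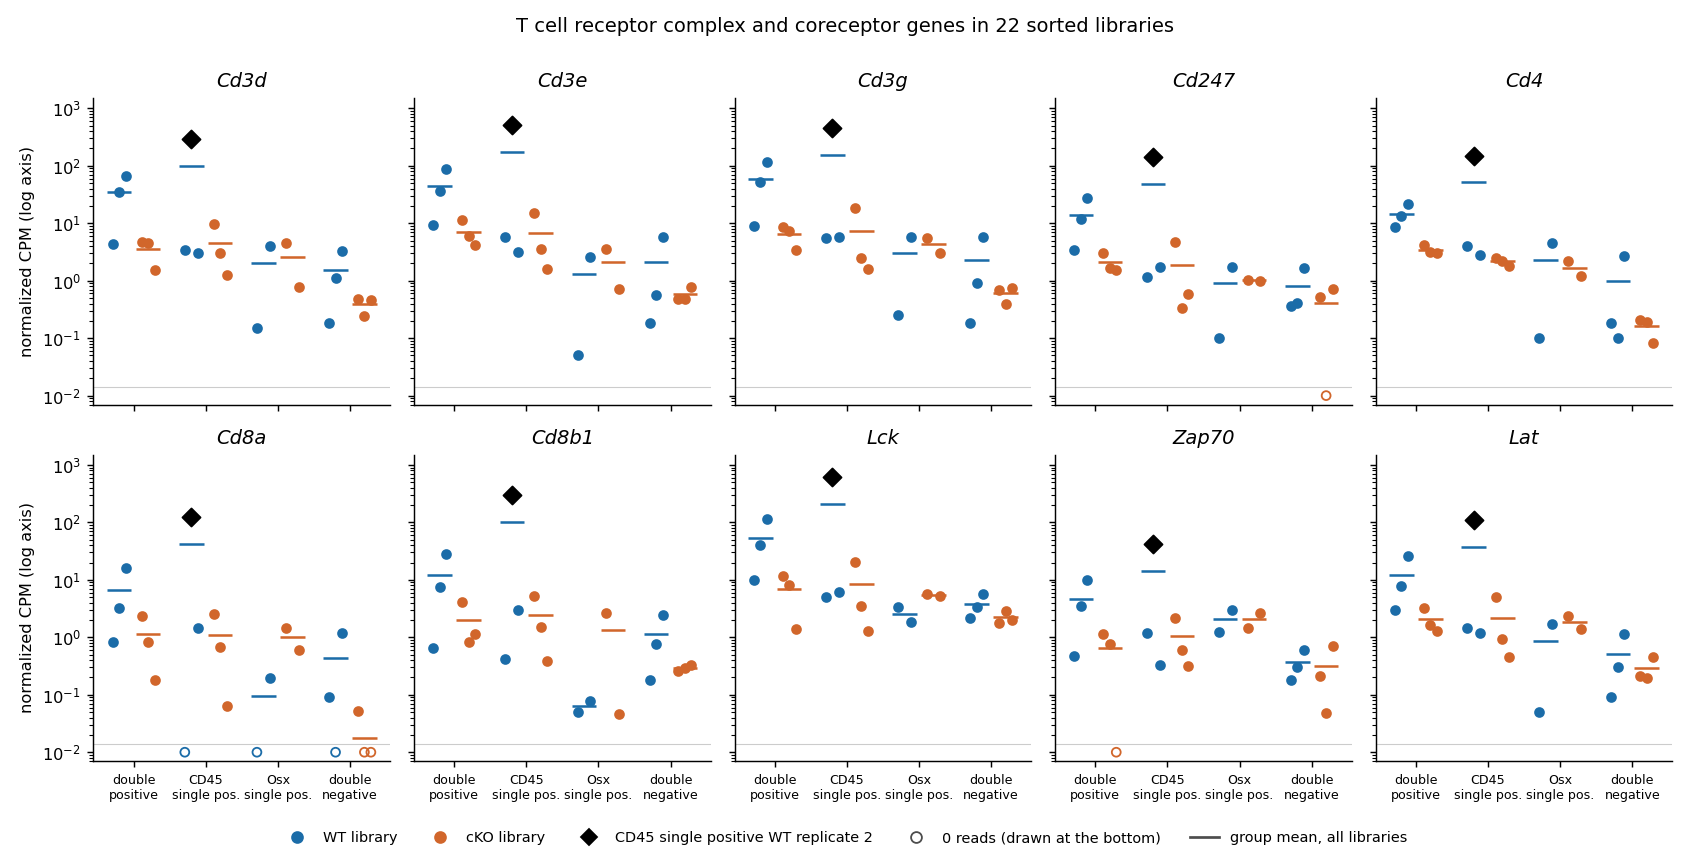
Normalized CPM of the 10 genes on a log axis in the 4 populations, with WT and cKO libraries as points, group means as bars and libraries with 0 reads as open points at the bottom. The CD45 single positive WT replicate 2 library (black diamonds, 514 for Cd3e) lies above every other library for all 10 genes, and the double positive WT points spread from 9.21 to 89.6 for Cd3e.

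Levels of different genes were compared per length, in the RPKM values of the files. Cd3g had the highest RPKM of the 10 in 11 of the 12 CD45+ libraries, with a median of 6.46, and Cd3e was first in the remaining 1 and second by median (4.75). Cd3d (3.01), Lck (2.75) and Lat (1.68) came next by median RPKM, then Cd8b1 (1.42) and Cd4 (0.787). Cd247 (0.389), Cd8a (0.333) and Zap70 (0.279) were the 3 lowest by median RPKM, and Zap70 was last in 7 of the 12 libraries. In the CD45- libraries the first place was taken by Cd3g in 6 and by Lck in 4, with median RPKM values of 0.875 and 1.16.

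The sort by CD45 was compared first. In the edgeR quasi-likelihood fit of all 22 libraries, 9 of 10 genes were called higher in the CD45+ than in the CD45- libraries, all but Zap70, where calls at an adjusted p of at most 0.05 in that direction covered 32.6% of all genes tested. The log2 fold changes had a median of 3.40, against 0.06 over all genes. Cd8a had the largest, 4.58 ± 1.19 (SE; adjusted p = 0.00283), and Cd3e had 4.16 ± 0.94 (adjusted p = 0.000939). Lck, at 3.12 ± 0.79 (adjusted p = 0.00233), was the smallest of those called, and Zap70 had 1.61 ± 0.77 (adjusted p = 0.0771). DESeq2 called all 10 with Zap70 at 1.55 (adjusted p = 0.0413), where it called 30.6% of all genes higher. Zap70 was also called by edgeR without CD45 single positive WT replicate 1 (adjusted p = 0.0493) and without replicate 3 (adjusted p = 0.0359), where 32.5% and 32.3% of all genes were called higher. For none of the 10 did the CD45+ and CD45- values separate completely. Without CD45 single positive WT replicate 2 the same 9 genes were called, where 33.5% of all genes were, with a median of 2.30, Zap70 at 0.55 (adjusted p = 0.435) and Cd3e at 2.84 ± 0.67 (adjusted p = 0.00126). Without Osx single positive WT replicate 2, in which Ptprc was at 81.2, the median was 4.41. With voomWithQualityWeights, which gives less weight to libraries that deviate, 6 of the 10 were called, where 33.1% of all genes were called higher, and Cd8a, Cd8b1, Lck and Zap70 were not.

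Whether the red label marked leukocytes with more or less T cell receptor RNA was asked by comparing double positive with CD45 single positive cells. With all libraries, 0 of the 10 genes were called over both genotypes (edgeR, adjusted p of 1 for each), where 0.00666% of all genes were called, and 0 had an unadjusted p under 0.05. DESeq2 and voomWithQualityWeights also called 0. The log2 fold changes were all below 0, with a median of -0.94, a lowest value of -1.67 (Cd8b1) and a highest of -0.57 (Cd4). Without CD45 single positive WT replicate 2 all 10 were above 0, with a median of 1.56, and 0 were called, with 1 at an unadjusted p under 0.05. The sign of this difference in the edgeR fit turned when that 1 library was left out. Within WT it also turned with the library kept, under voomWithQualityWeights (below).

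Within WT the turn was larger. With all libraries 0 of 10 were called (edgeR, with 0 at an unadjusted p under 0.05, and 0 also by DESeq2 and voomWithQualityWeights), where 0.0% of all genes were. The log2 fold changes were -1.50 ± 1.39 for Cd3d, -1.96 ± 1.48 for Cd3e, -1.42 ± 1.42 for Cd3g, -1.92 ± 1.34 for Lck and -3.08 ± 1.64 for Cd8b1, and the median over the 10 genes was -1.79. Without the library that stands apart they were 3.44 ± 1.33 for Cd3d, 3.32 ± 1.39 for Cd3e, 3.39 ± 1.38 for Cd3g, 3.31 ± 1.12 for Lck and 2.80 ± 1.51 for Cd8b1, with a median of 3.26. In that setting 7 of 10 genes had all 3 double positive values above both CD45 single positive values, a separation not counted over all genes. An unadjusted p under 0.05 (edgeR) was found for 6 of the 10, against 338 of 14839 genes tested. Of the 10, 0 were called, each with an adjusted p of 1. With that library kept, all 10 values were above 0 under voomWithQualityWeights, from 1.74 (Cd4) to 4.41 (Cd8a). The weight that this library received was not examined, and the cause of the turn between the tools was not tested. Other T cell markers summed to 134, 236 and 527 normalized CPM in the 3 double positive WT libraries, in the order of their Cd3e values, and NK cell markers to 43.2, 101 and 277. The T cell markers also followed that order in the CD45 single positive WT libraries (92.9, 1917 and 54.2 in replicates 1, 2 and 3). They did not in the cKO libraries of either CD45+ population. CD45 single positive cKO replicate 3 had the highest T cell marker sum of its group, 146, of which Il7r, the interleukin 7 receptor alpha chain, made 112, with the lowest Cd3e value (1.60). The sum was also higher by median in the 10 CD45- libraries (194, from 89.8 to 497) than in the 12 CD45+ libraries (137). Thy1, a surface glycoprotein that fibroblasts also carry, was the largest of the 12 markers in each CD45- library. In a split made after these values were seen, Thy1 ranged from 32.9 to 480 in CD45- and from 1.20 to 52.6 in CD45+ libraries, and the other 11 markers summed to 9.02 to 56.9 and to 52.6 to 1865. Macrophage markers summed to 11772 to 13720 in the 3 double positive WT libraries, and the part of these markers in the result was not tested.

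Within cKO the populations were close. The median log2 fold change of double positive over CD45 single positive was -0.14, with 4 genes above and 6 below 0, from -0.69 (Zap70) to 0.66 (Cd4). None was called (edgeR, 0 at an unadjusted p under 0.05, and 0 by DESeq2 and by voomWithQualityWeights), where 0.0% of all genes were. Standard errors from 1.24 to 1.76 on the log2 scale mean that differences of several fold were not detectable here. Without CD45 single positive cKO replicate 1, which had the highest values of its group for Cd3e (14.997) and Lck (20.6), the median was 1.51. The difference between the genotypes in this contrast had a median of 1.77 over the 10 genes with all libraries and -3.27 without CD45 single positive WT replicate 2, and 0 of 10 were called either way (edgeR, adjusted p of at least 0.953 with all libraries), where 0.0% of all genes were, while DESeq2 and voomWithQualityWeights also called 0. With all libraries 0 of the 10 had an unadjusted p under 0.05 (edgeR), and without that library 3 had, against 665 of 14839 genes tested.

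**Figure D3:**
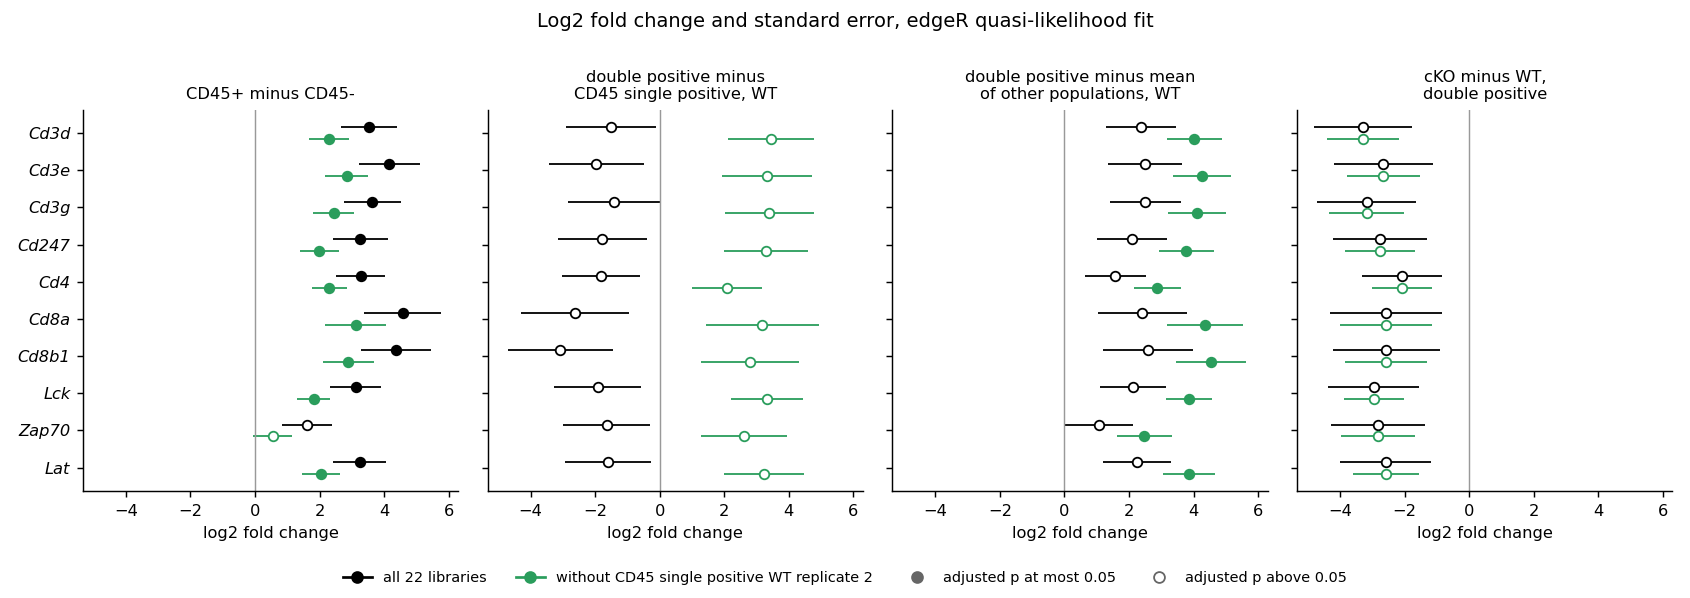
Log2 fold changes with standard errors of the 10 genes in 4 comparisons, with all 22 libraries (black) and without CD45 single positive WT replicate 2 (green), filled where the adjusted p is at most 0.05. In the comparison of double positive with CD45 single positive WT cells all 10 values move from below 0 (median -1.79) to above 0 (median 3.26), and in that of cKO with WT double positive cells they stay near a median of -2.70.

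The study's methods set each population against the mean of all others, while its list of genes for double positive cells is worded as relative to CD45 single positive cells. The list gives log2 fold changes of 5.04 for Cd3e and 4.55 for Cd3g. With voomWithQualityWeights and CD45 single positive WT replicate 2 left out, the contrast with the mean of the other WT populations also gave 5.04 and 4.55. The direct comparison described above gave 3.20 and 3.11 in that setting. The contrast with the mean of the others was taken here within WT, with the 3 remaining WT populations averaged. With all libraries 0 of 10 genes were called by edgeR, where 8.62% of all genes were called higher, although all 10 were above 0 with a median log2 fold change of 2.31. Adjusted p ran from 0.103 (Cd3g) to 0.499 (Zap70) in the edgeR fit. An unadjusted p under 0.05 was found there for 4 of the 10, against 5788 of 15018 genes tested. DESeq2 called 0 and voomWithQualityWeights called 8, all but Cd8b1 and Zap70, where 18.2% of all genes were called higher. Without CD45 single positive WT replicate 2 all 10 were called, where 10.5% of all genes were. The log2 fold changes in that setting were 4.26 ± 0.91 for Cd3e (adjusted p = 0.00376), 3.86 ± 0.72 for Lck (adjusted p = 0.00146), 4.54 ± 1.07 for Cd8b1 (adjusted p = 0.00726) and 2.47 ± 0.86 for Zap70 (adjusted p = 0.0453). For 7 of the 10 genes all 3 double positive WT values lay above those of all other WT libraries in that setting, the exceptions being Cd8a, Cd8b1 and Zap70. Such separation was not counted over all genes. Without double negative WT replicate 3 the call extended to Cd3e, Cd3g and Cd4 (3 of 10). The share over all genes is not given for that fit, and fits with 1 library left out called 1861 to 5117 genes in all. Without double positive WT replicate 3 the median was 1.10 and Zap70 was at -0.18. Cd3e and Cd3g are among the genes that the study selected on these samples, so their direction here is not independent evidence.

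Between the CD45- populations Osx single positive cells were set against double negative cells. None of the 10 genes was called (edgeR), where 1.89% of all genes were, while DESeq2 and voomWithQualityWeights called 0. In the edgeR fit 2, Cd4 and Zap70, had an unadjusted p under 0.05, against 2847 of 15018 genes tested. Zap70 had the largest log2 fold change, 2.57 ± 1.12 (adjusted p = 0.226). Its 4 Osx single positive values did not overlap its 6 double negative values, a separation not counted over all genes. Cd4 had 2.31 ± 1.08 (adjusted p = 0.257), with 4.57 and 0.102 normalized CPM in Osx single positive WT and 2.16 and 1.18 in cKO against 0.0834 to 2.70 in double negative cells. Of the 10 genes 9 were above 0, with a median of 1.62, and without Osx single positive WT replicate 2 the median was -0.25. Ptprc ranged from 2.45 to 164 normalized CPM in the Osx single positive and from 4.46 to 337 in the double negative libraries, and its part in these values was not tested.

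Lck and Zap70 reached higher proportions to Cd3e in some CD45- libraries, while others lay within the range of the CD45+ libraries. Osx single positive WT replicate 1, with Ptprc at 2.45 normalized CPM, held 1 Cd3e read, 65 Lck reads and 24 Zap70 reads. Its Cd3d, Cd3g, Cd247 and Lat counts were 3, 5, 2 and 1 reads, so the kinases were not accompanied by the other genes there. With 0.5 added to each count, Lck had 0.333 to 1.89 reads per Cd3e read over the 12 CD45+ libraries and 0.704 to 43.7 over the 10 CD45- libraries. Zap70 had 0.00709 to 0.216 reads per Cd3e read in CD45+ and 0.111 to 16.3 in CD45- libraries. By population, the 4 Osx single positive libraries held 24, 76, 42 and 59 Zap70 reads and the 6 double negative libraries 1 to 17, while Lck had 47 to 163 reads in the former and 34 to 105 in the latter. The 8 NK cell markers summed to 1.79 normalized CPM in Osx single positive WT replicate 1, the lowest of all 22 libraries. The 12 other T cell markers summed to 497 there, the highest of the 10 CD45- libraries, with 5 of the 12 at 3 reads or more. Thy1 made 480 of that sum and the other 11 markers 17.6, and their part in the Lck and Zap70 reads was not tested.

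**Figure D4:**
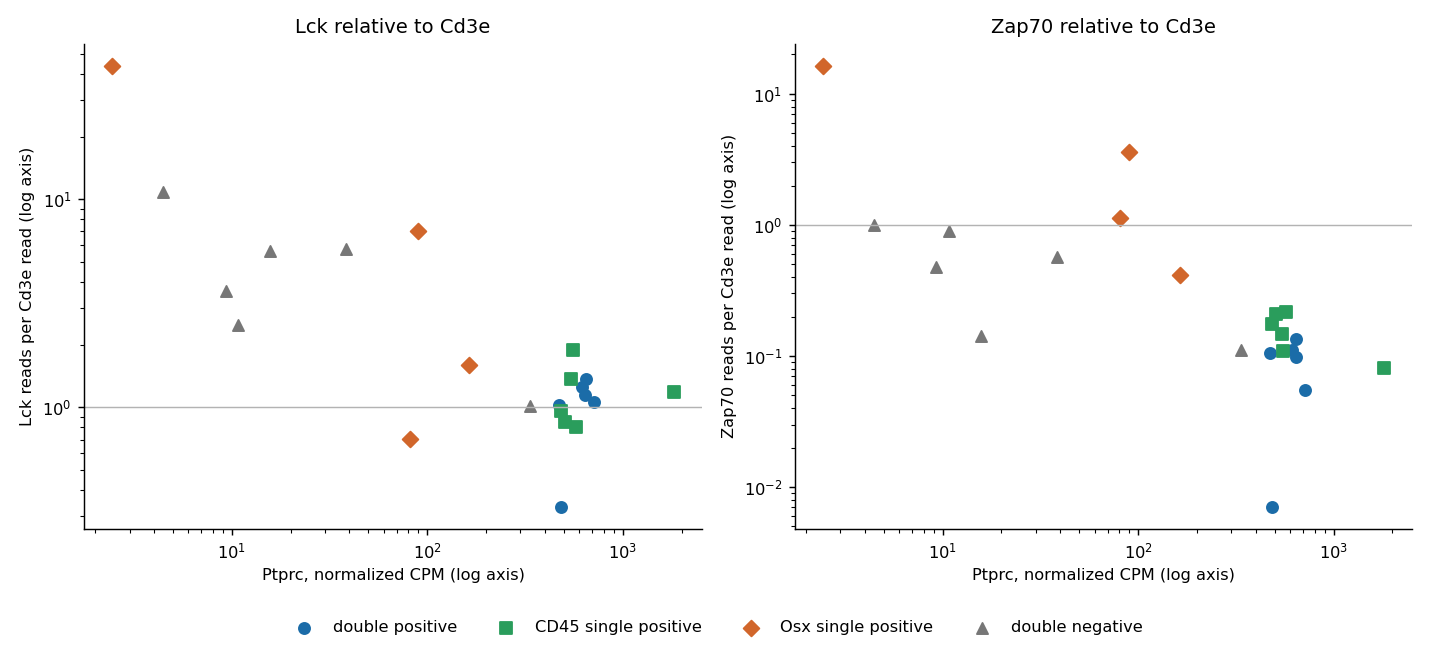
Reads of Lck (left) and Zap70 (right) per Cd3e read, with 0.5 added to each count, against Ptprc in normalized CPM, both on log axes, 1 point per library. The CD45+ libraries, right of 472 normalized CPM, lie between 0.333 and 1.89 for Lck, and Osx single positive WT replicate 1, at the left end, lies at 43.7 for Lck and 16.3 for Zap70.

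The other 7 genes were also correlated with the mean log2 CPM of Cd3d, Cd3e and Cd3g. Over the 12 CD45+ libraries Pearson's r was 0.991 for Lat, 0.985 for Lck, 0.975 for Cd247, 0.939 for Cd4, 0.935 for Zap70, 0.929 for Cd8b1 and 0.918 for Cd8a. Over the 10 CD45- libraries it was 0.938 for Lat, 0.889 for Cd4, 0.805 for Cd247 and 0.794 for Cd8a but 0.442 for Lck, 0.527 for Zap70 and 0.573 for Cd8b1, so that a coreceptor gene lay beside the kinases. These values are descriptions, the libraries share populations and genotypes, and the first set is pulled by the library that stands apart, without which r over 11 libraries ran from 0.835 (Cd8a) to 0.982 (Lat) among those 7 genes.

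The proportions among the genes were compared between double positive and CD45 single positive libraries by an exact two-sided permutation test within genotypes. There were 400 arrangements and the smallest possible p was 0.005. Of 10 ratios, 9 to Cd3e and that of Cd8a to Cd4, none passed after adjustment over the 10. Zap70 to Cd3e had the largest difference, -1.24 on the log2 scale (exact permutation p = 0.045, adjusted p = 0.45). Double positive cKO replicate 3, with 0 Zap70 reads, had a log2 ratio of -7.14, and without it the difference was -0.56 (adjusted p = 0.8). For the other 9 ratios the difference lay between -0.76 (Cd8b1 to Cd3e, adjusted p = 0.917) and 0.30 (Cd8a to Cd4, adjusted p = 0.93). The Cd8a to Cd4 value was -0.31 with 5 added to each count, and ran from -0.79 without CD45 single positive WT replicate 1, which had 0 Cd8a reads, to 0.92 without CD45 single positive WT replicate 2. In CD45 single positive WT replicate 2 the log2 ratio of Cd8a to Cd4 was -0.25. The CD45 single positive libraries, this one included, ran from -7.10 (WT replicate 1, with 0 Cd8a reads) to 0.03. Since that range holds the library itself, it cannot show whether its ratio was usual.

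Genotype was compared last. In double positive cells all 10 log2 fold changes of libraries labelled cKO over those labelled WT were below 0, with a median of -2.70, from -3.29 ± 1.51 for Cd3d to -2.08 ± 1.24 for Cd4. None was called (edgeR, adjusted p of 1 for each), where 0.0% of all genes were called, and DESeq2 and voomWithQualityWeights called 0. In the edgeR fit 1 had an unadjusted p under 0.05, against 515 of 15018 genes tested. The median was again -2.70 without CD45 single positive WT replicate 2, and 0 were called (lowest adjusted p = 0.933, edgeR). In that fit 8 had an unadjusted p under 0.05 (lowest 0.00561), against 740 of 14839 genes tested. For Cd3g, Cd247 and Cd4 all 3 cKO values lay below all 3 WT values, whereas the others overlapped through double positive WT replicate 1, in which Cd3d was at 4.40 normalized CPM against 4.802, 4.46 and 1.56 in cKO. Such separation was not counted over all genes. Without double positive WT replicate 3 the median was -1.67. The Cdh2 counts give no check of the deletion in these cells, since they lay between 0 and 0.713 normalized CPM in both genotypes.

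In CD45 single positive cells the result turned on the library described above. With all libraries the median log2 fold change of cKO over WT was -4.58. All 10 genes had an unadjusted p under 0.05 (edgeR), against 1474 of 15018 genes tested. None of the 10 was called (edgeR, adjusted p from 0.417 to 0.445, and 0 by DESeq2 and by voomWithQualityWeights), where 0.0% of all genes were. Without WT replicate 2 the median was 0.49, with 9 genes above 0 and Cd4 at -0.66, and 0 had an unadjusted p under 0.05. In Osx single positive cells the median was 0.58 with 0 called (edgeR, 0 at an unadjusted p under 0.05, and 0 by both other tools), where 0.00666% of all genes were, and without WT replicate 2 of that population it was 4.05. In double negative cells the median was -1.86 with 0 called (edgeR, 0 at an unadjusted p under 0.05 with all libraries and 1 without CD45 single positive WT replicate 2, and 0 by both other tools), where 0.0% of all genes were, and without WT replicate 3, which had the highest Ptprc of the CD45- libraries, it was 0.14.

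The receptor chains themselves were read through their constant regions. Of 7 constant region genes listed, 6 were matched in the files (Trdc was not analysed here), and all 6 were called higher in CD45+ than in CD45- libraries, with log2 fold changes of 2.19 for Trac, 3.13 for Trbc1, 2.84 for Trbc2, 4.59 for Tcrg-C1, 4.71 for Tcrg-C2 and 4.43 for Tcrg-C4. Their median, 3.78, stood against 0.06 over all genes, beside the 32.6% of all genes called higher. Tcrg-C2 and Tcrg-C4 no longer passed the filter without CD45 single positive WT replicate 2, and the other 4 were called, with 1.02 for Trac, 1.88 for Trbc1, 1.56 for Trbc2, 3.49 for Tcrg-C1 and a median of 1.72. In the CD45- libraries Tcrg-C1, Tcrg-C2 and Tcrg-C4 reached at most 0.385, 0.275 and 0.228 normalized CPM. They passed the filter only through CD45+ libraries, so their direction in this contrast was set by the filter. Their calls, and their part in both medians, are not evidence. Trac, the constant region of the alpha chain, ranged from 7.84 to 92.7 normalized CPM in double positive WT and from 4.09 to 6.95 in cKO. In CD45 single positive cells Trac ranged from 3.50 to 322 in WT and from 2.11 to 11.2 in cKO. Over the 10 CD45- libraries it ranged from 1.42 to 7.83 (median 3.74), against a median of 6.00 over the 12 CD45+ libraries. Its Osx single positive values ran from 3.62 to 7.83 in WT and from 6.96 to 7.38 in cKO. The gamma chain genes were lower, with Tcrg-C1 at 0.951 to 4.22 normalized CPM in double positive WT, at 0 to 7.62 in CD45 single positive WT, and at 0 in both Osx single positive WT libraries. For double positive over CD45 single positive cells, both genotypes, 0 of 6 were called, with a median of -0.98 with all libraries and 1.53 over 4 without WT replicate 2. Tcrg-C1 was also among the genes that the study selected on these samples.

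The wider signaling list held 34 genes of the pathway, all measured. By the CD45 sort 29 of 34 were called, 27 higher and 2 lower, with a median log2 fold change of 2.83, where 32.6% of all genes were called higher and 31.1% lower. With CD45 single positive WT replicate 2 left out, 30 were called, 26 higher and 4 lower, with a median of 2.23, where 33.5% of all genes were called higher and 33.6% lower. The 2 lower were Plcg1 (-1.36, adjusted p = 0.000345), the phospholipase that Lat recruits, and Sos1 (-0.44, adjusted p = 0.0166), a Ras exchange factor, and both were chosen for mention after their values were seen. For double positive against CD45 single positive cells, both genotypes, 0 of 34 were called by edgeR, where 0.00666% of all genes were, with a median of -0.38 with all libraries and 0.26 without that library. The 2 largest values above 0 were Vav1 (0.25), an exchange factor, and Nfatc1 (0.18), a transcription factor, and the 2 lowest were the Tec family kinase Txk (-1.74) and protein kinase C theta, Prkcq (-1.69). With that library left out Txk was at 0.90 and Prkcq at 0.68. In the contrast of double positive WT cells with the mean of the other WT populations 8 of 34 were called, 7 higher and 1 lower, where 8.62% of all genes were called higher and 14.9% lower. Without that library 20 were called, 19 higher and 1 lower, where 10.5% of all genes were called higher and 14.5% lower. Some genes of this list, among them Cd5, Cd28, Ubash3a, Themis and Trat1, were selected by the study on these samples, and their direction is not independent evidence.

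The genes outside the 10 whose log2 CPM was most like the mean of the 3 CD3 chains over the 12 CD45+ libraries were Trac (r = 0.993), Sept1 (0.992), Trbc2 (0.991), Gimap3 (0.990), Il2rb (0.986), Gzmb (0.982), Sh2d2a (0.981) and Trbc1 (0.981). Each was highest in CD45 single positive WT replicate 2, from 114 normalized CPM for Trbc1 to 463 for Gzmb, the granzyme B protease of killer lymphocytes. Without that library r over 11 libraries ran from 0.960 (Trbc1) to 0.988 (Trac). In the 10 CD45- libraries Sept1, a septin, had r = -0.0029 and Il2rb, a chain of the interleukin 2 receptor, had r = 0.574. Trac had 0.611 there, against 0.951 for the adaptor Sh2d2a.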

How the data were processed

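RNA was measured in 22 libraries of sorted stromal cells (Clontech SMARTer kit per the labels). The deposited count per gene was made by the authors with STAR 2.0.4b and featureCounts 1.45 of Subread, per the submitters' processing notes, on GRCm38 with Ensembl release 76 genes, and the authors also deposited CPM (counts scaled to the library total) and RPKM (CPM per kilobase of gene) beside each count. Both were recomputed from the counts to check them.

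Symbols came from GENCODE M21 (40254 of 41388 genes matched). Genes annotated as rRNA (355) were left out. Tests used edgeR 4.0.16 (quasi-likelihood, TMM factors, R 4.3.3) with 1 mean for each of 8 groups, on genes with more than 1 CPM in at least 2 libraries. The standard errors given for edgeR were derived from the test, as the absolute log2 fold change divided by the square root of its F statistic. The p-values were adjusted by Benjamini-Hochberg, with 0.05 as the highest adjusted p called. Normalized CPM are CPM of TMM-scaled libraries. Alternatives were voomWithQualityWeights (limma 3.58.1, the study's test), DESeq2 1.42.0, RLE factors, no filter, the compared groups alone, a replicate block and each library left out. The fits were tested on simulated data. Counted reads per library, 16594228 to 26784003, set the precision.

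Named genes were the 10 genes, the constant region genes, of the signaling list 2 in each direction as none was called, and the 8 genes most correlated with the CD3 chains. These genes, lists and tests were chosen with earlier results of these data known. Differing tumor labels were left as they stand.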

Additional observations from a re-analysis of the deposited data

How the results depend on the processing

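In the comparison of double positive with CD45 single positive WT cells, all 10 log2 fold changes, below 0 with all libraries, changed sign in 5 settings and kept it in the others run. Leaving out 1 library at a time, their ranges were Cd3d -2.36 to 3.44, Cd3e -2.96 to 3.32, Cd3g -2.38 to 3.39, Cd247 -2.67 to 3.29, Cd4 -2.36 to 2.09, Cd8a -4.36 to 3.18, Cd8b1 -4.62 to 2.80, Lck -3.03 to 3.31, Zap70 -2.88 to 2.61, Lat -2.82 to 3.23, the upper end being the fit without CD45 single positive WT replicate 2. With voomWithQualityWeights and all libraries they were 2.63 (Cd3d), 2.64 (Cd3e), 2.67 (Cd3g), 2.76 (Cd247), 1.74 (Cd4), 4.41 (Cd8a), 2.40 (Cd8b1), 2.62 (Lck), 1.91 (Zap70) and 2.60 (Lat). The other 3 settings, chosen after seeing the data, left that library out as well. With voomWithQualityWeights they were 3.10 (Cd3d), 3.20 (Cd3e), 3.11 (Cd3g), 3.17 (Cd247), 2.18 (Cd4), 4.54 (Cd8a), 2.71 (Cd8b1), 3.07 (Lck), 2.49 (Zap70) and 3.07 (Lat). With DESeq2 they were 3.45 (Cd3d), 3.33 (Cd3e), 3.41 (Cd3g), 3.31 (Cd247), 2.10 (Cd4), 3.22 (Cd8a), 2.83 (Cd8b1), 3.33 (Lck), 2.63 (Zap70) and 3.25 (Lat). With the replicate block they were 3.38 (Cd3d), 3.35 (Cd3e), 3.35 (Cd3g), 3.46 (Cd247), 1.97 (Cd4), 3.62 (Cd8a), 3.16 (Cd8b1), 3.44 (Lck), 2.52 (Zap70) and 3.18 (Lat). None of the 10 was called in any of these 5 settings.

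Of the calls, those of double positive WT cells against the mean of the other WT populations depended on the setting, from 0 with all libraries to 8 of 10 with voomWithQualityWeights and 2 with the replicate block within genotype. Leaving out 1 library at a time gave 0 to 10, and Zap70 ran from -0.18 to 2.47 there, the lower end without double positive WT replicate 3. Without CD45 single positive WT replicate 2 there were 8 with voomWithQualityWeights, 10 with DESeq2 and 9 with the replicate block. For CD45+ against CD45- cells voomWithQualityWeights without that library called 5 of 10 against 9, DESeq2 with all libraries 10, and for Osx single positive against double negative cells DESeq2 without it called 2 (Cd4 and Zap70) against 0. The share of all genes called higher moved with the setting too. For double positive WT cells and all libraries it was 8.62% by edgeR and 18.2% by voomWithQualityWeights. Where no share is given, the counts of the 10 genes cannot be set against one another. The causes of these differences between settings were not tested. For the other 8 comparisons of the 10 genes each alternative run left 0 called, and no ratio passed in any.

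Same-numbered libraries of 1 genotype deviated together weakly (median correlation 0.05, 10 of 30 pairs over 0.1), against -0.02 and 6 of 60 for other numbers. The labels tie no number to a mouse or batch and not every pair passed 0.1, so the numbers were not taken to pair the libraries. The replicate block with all libraries left 9 genes called for the CD45 sort and 0 elsewhere, and the block within genotype added Cd3d and Cd3g for double positive WT cells.

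Over all genes tested, the number called moved by more than 1.5 times in 10 comparisons, all but CD45+ against CD45- cells. For double positive WT cells against the mean of the other WT populations it was 3531, with 5509 by voomWithQualityWeights, 1289 with the compared groups alone and 1861 to 5117 with 1 library left out. For Osx single positive against double negative cells it was 284, with 982 by DESeq2, 718 by voomWithQualityWeights, 92 without the filter, 185 with the replicate block within genotype, 2 with the compared groups alone and 30 to 878 with 1 library left out. For cKO against WT it was 0 in double negative, 0 in CD45 single positive, 1 in Osx single positive and 0 in double positive cells, with 522, 26, 134 and 1 by DESeq2. For double positive against CD45 single positive cells it was 1 in both genotypes, 0 in WT and 0 in cKO, with 6, 5 and 2 by DESeq2.

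Groups of 2 or 3 libraries and standard errors of 1.21 to 1.67 on the log2 scale, between double positive and CD45 single positive WT cells, limit the calls, and Cd8a had 0 to 304 and Zap70 0 to 189 reads over the CD45+ libraries without the one that stands apart.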
